A study of Mus musculus with 9 samples.

Results

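Hepa1-6 tumors that had grown in the liver of mice given only phosphate-buffered saline (PBS) are described here gene by gene. They are the 3 tumors labelled control, of 9 tumors sequenced in all, and they were chosen by that label alone. Hepa1-6 is a mouse hepatoma cell line, that is, a line of malignant cells of hepatocyte origin. The study compared such tumors with tumors of mice given an antibody against PD-1, an inhibitory receptor of T cells, and the antibody-treated tumors are not used here. The hosts were male C57BL/6 mice, bought at 6 to 8 weeks of age. Tumor pieces of about 2 mm, cut from Hepa1-6 tumors grown under the skin, were placed in the left lobe of the liver. PBS was injected into the peritoneal cavity every 4 days, 5 times, from day 10 to day 26. Tumors were removed on day 27, freed of surrounding tissue and frozen. The labels name no altered gene and no transgene in host or graft. The files give values per gene and not per allele, so a transcript cannot be assigned to graft or host. Each tumor is 1 mouse and 1 library, and they are called tumor 1, tumor 2 and tumor 3 by their label.

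A hepatocyte makes most plasma proteins, the bile acids, urea and much of the blood's glucose, and it oxidizes and conjugates drugs with enzymes found at high levels in few other cells. Hepatoma cells keep some of this program and give up other parts of it, and many switch on genes of the fetal liver such as Afp. A tumor in the liver also holds cells of the host, among them macrophages, lymphocytes, neutrophils, fibroblasts and vessels. At its edge it can hold liver tissue itself, with hepatocytes, Kupffer cells (the resident macrophages of the liver) and sinusoidal endothelial cells. Bulk RNA holds all of these together. Fewer cells of a type and less RNA per cell cannot be told apart in it.

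The measurement is the FPKM, the number of fragments mapped to a gene divided by its transcript length and by all mapped fragments, as the authors deposited it for each tumor. FPKM is scaled to length, so levels can be set side by side between genes. Values are given in the order tumor 1, tumor 2, tumor 3. Entries that shared a name or named several genes were joined into 1 locus with summed FPKM, which gave 49133 loci, and 12991 of them (26.4%) had a mean FPKM of at least 1 and are called expressed. The range of a locus is its highest minus its lowest log2(FPKM + 1) over the 3 tumors, and a range of at least 2 is called wide. A locus is called high or low in a tumor where its log2(FPKM + 1) lay at least 1 above or below both other tumors. A locus can reach the mean of 1 FPKM through the other tumors alone, and a low call then follows in part from this filter. It can also reach that mean through 1 tumor alone, and a high call in that tumor then follows in part from the filter. With 3 tumors of 1 group there is no comparison of groups and no test. Calls describe these 3 tumors. The files give no fragment totals, so the depth is unknown. Relative depth was estimated from the commonest ratio between 2 tumors, over entries above 0 and under 1 FPKM in both. It put tumor 2 at 0.984 times and tumor 3 at 1.07 times the depth of tumor 1. Only 222 of 1825 and 205 of 1848 entries lay close to these ratios. The ratio was sought only over a narrow span around equal depth, so a larger difference could not have been found.

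Of the expressed loci 1133 (8.72%) were wide, and most of the calls in 1 tumor were low values in tumor 1. Low in tumor 1 were 1186 loci (9.13%), against 186 (1.43%) low in tumor 2 and 113 (0.87%) low in tumor 3. High in tumor 1 were 214 loci (1.65%), high in tumor 2 were 244 (1.88%) and high in tumor 3 were 178 (1.37%). Across expressed loci Pearson's correlation of log2(FPKM + 1) was 0.823 between tumors 1 and 2, 0.852 between tumors 1 and 3 and 0.934 between tumors 2 and 3, as a description over loci that share a library. For 1030 wide loci with a single entry in each tumor, the confidence bounds deposited with the FPKM of the highest and the lowest tumor lay apart in 965 (93.7%). A value listed at 0 can carry bounds of 0 on both sides, so such a 0 can set the bounds apart by itself. Loci with a 0 were kept in this count, and of all 1133 wide loci 601 held no 0. The share is therefore no measure of precision. These bounds cover the estimate within a library, not the spread between mice.

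An FPKM of exactly 0 needs care in these files. Of the expressed loci 616 were at 0 in at least 1 tumor, and 420 of them had that 0 in an entry to which Cufflinks had given an identifier of its own in place of the annotation's. Genes that most growing cells need are also at 0. Ndufs1, a core subunit of respiratory complex I, and Rfc4, a subunit of the clamp loader of DNA replication, were listed at 0 in all 3 tumors. Such a 0 can be a failed estimate, and a gene is therefore described as listed at 0, with no fold. Leaving out every expressed locus with a 0 left 12375 loci, of which 601 (4.86%) were wide and 959 (7.75%) low in tumor 1.

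The 100 most abundant loci held 41.5%, 38.2% and 37% of the summed FPKM of named genes in tumors 1, 2 and 3, and 68 of them were among the top 100 in all 3. Rn18s, a ribosomal RNA, had the highest mean, at 12814, 5379 and 7962 FPKM. In tumors 2 and 3 the locus of Igkc, given below, was higher. The mitochondrial locus that joins mt-Co1 with other mitochondrial genes, 26 in all, was at 8242, 7202 and 7589.5 FPKM, and mt-Cytb, a subunit of complex III, was at 5305, 4702 and 5116 FPKM. Rps6, a ribosomal protein, was at 9753, 5381 and 7221 FPKM, and Eef1a1, an elongation factor of translation, at 6695, 4978 and 5850.1 FPKM. Gm43520, a gene with a model name only, reached 8652, 7905 and 5039.6 FPKM. Ribosomal proteins as a list took 27.6%, 17.1% and 20.9% of named FPKM, and 75 of their 76 loci were lowest in tumor 2 and 70 highest in tumor 1.

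Abundant immunoglobulin loci differed widely between tumors. The locus of Igkc, the kappa light chain constant region, was at 109, 13735 and 9847 FPKM, and the joined heavy chain locus of Ighm, Igha and the Ighg genes at 75.4, 10522 and 6501 FPKM. Both were far lower in tumor 1 than in the other tumors. Fth1, the heavy chain of ferritin that stores iron, was at 1973, 7076 and 7713 FPKM and Ftl1, its light chain, at 1810.3, 2614 and 3079 FPKM. Apoe, a lipoprotein made by hepatocytes and by macrophages, was at 3868, 5710.1 and 6364 FPKM with Tomm40 in its locus. B2m, the light chain of MHC class I, reached 3994, 3509.9 and 5827 FPKM. Tpt1, a growth-related cytosolic protein, was at 3753, 3219 and 3429.7 FPKM, and the actin-binding peptides Tmsb10 and Tmsb4x at 4648, 3013 and 3519 and at 1408, 2666 and 2585 FPKM. Actb, the cytoskeletal actin, was at 1668, 1883 and 1873 FPKM. Ptma, a chromatin-binding acidic protein, was at 1759, 1144 and 1513 FPKM and Gapdh, a glycolytic enzyme, at 2756, 1949.7 and 2551 FPKM.

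Alb and Afp stand side by side in the genome as the adult and the fetal member of the albumin family, and their levels are set side by side here. Alb, the main plasma protein of the adult, was at 173, 835 and 1259 FPKM, low in tumor 1. Afp, its counterpart in fetal liver and in hepatoma, was at 20.4, 25.3 and 18.2 FPKM, with all 3 tumors within a range of 0.46. On the FPKM scale Alb exceeded Afp in every tumor. Their promoters, from 250 bases before to 50 after the start in RefSeq's table for mouse build GRCm38.p6, are printed 5′ to 3′ so that the neighbors can be read beside their values. Capitals mark the CCAAT box, a common promoter element bound by NF-Y, searched as CCAAT together with its reverse complement ATTGG. The Alb promoter holds 2 matches and the Afp promoter 1, and 10248 of 27025 promoters in the table (37.9%) hold at least 1. The element was chosen after the promoters had been read. A match is a description of letters and shows no binding in these tumors. Both promoters lie on the plus strand, at chr5:90460620-90460919 for Alb and at chr5:90490464-90490763 for Afp.
Alb: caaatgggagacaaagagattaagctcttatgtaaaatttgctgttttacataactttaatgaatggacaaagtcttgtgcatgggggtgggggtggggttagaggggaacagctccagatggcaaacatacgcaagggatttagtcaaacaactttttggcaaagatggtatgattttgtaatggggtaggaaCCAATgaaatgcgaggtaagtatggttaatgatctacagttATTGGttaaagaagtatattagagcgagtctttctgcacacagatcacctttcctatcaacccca
Afp: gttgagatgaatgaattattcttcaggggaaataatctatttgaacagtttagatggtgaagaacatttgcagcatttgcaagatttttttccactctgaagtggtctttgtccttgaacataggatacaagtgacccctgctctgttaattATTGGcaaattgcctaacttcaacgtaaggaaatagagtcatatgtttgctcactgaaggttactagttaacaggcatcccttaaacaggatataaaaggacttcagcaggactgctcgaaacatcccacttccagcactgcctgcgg

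Most liver genes were at their lowest level in tumor 1. Of 362 liver loci in 18 lists, 336 (92.8%) were expressed, and the 362 held 2.30%, 6.25% and 7.65% of named FPKM. This share includes Apoe, Fth1 and Ftl1, at 3868, 1973 and 1810 FPKM in tumor 1. Macrophages make Apoe too, so the share is not one of hepatocyte products alone. The median log2(FPKM + 1) of the 336 loci was 2.72, 4.54 and 4.86, against 3.58, 3.68 and 3.66 over all expressed loci. Of the 336 loci 169 (50.3%) were wide, 215 (64.0%) were low in tumor 1 and 30 were high in tumor 3. The lowest value lay in tumor 1 for 87.5% of them and the highest in tumor 3 for 70.2%. By list, 17 of 18 medians were lowest in tumor 1, the hepatocyte transcription factors being the exception. No normal liver was sequenced, so a low level is described as such and is not a measured loss.

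**Figure D1:**
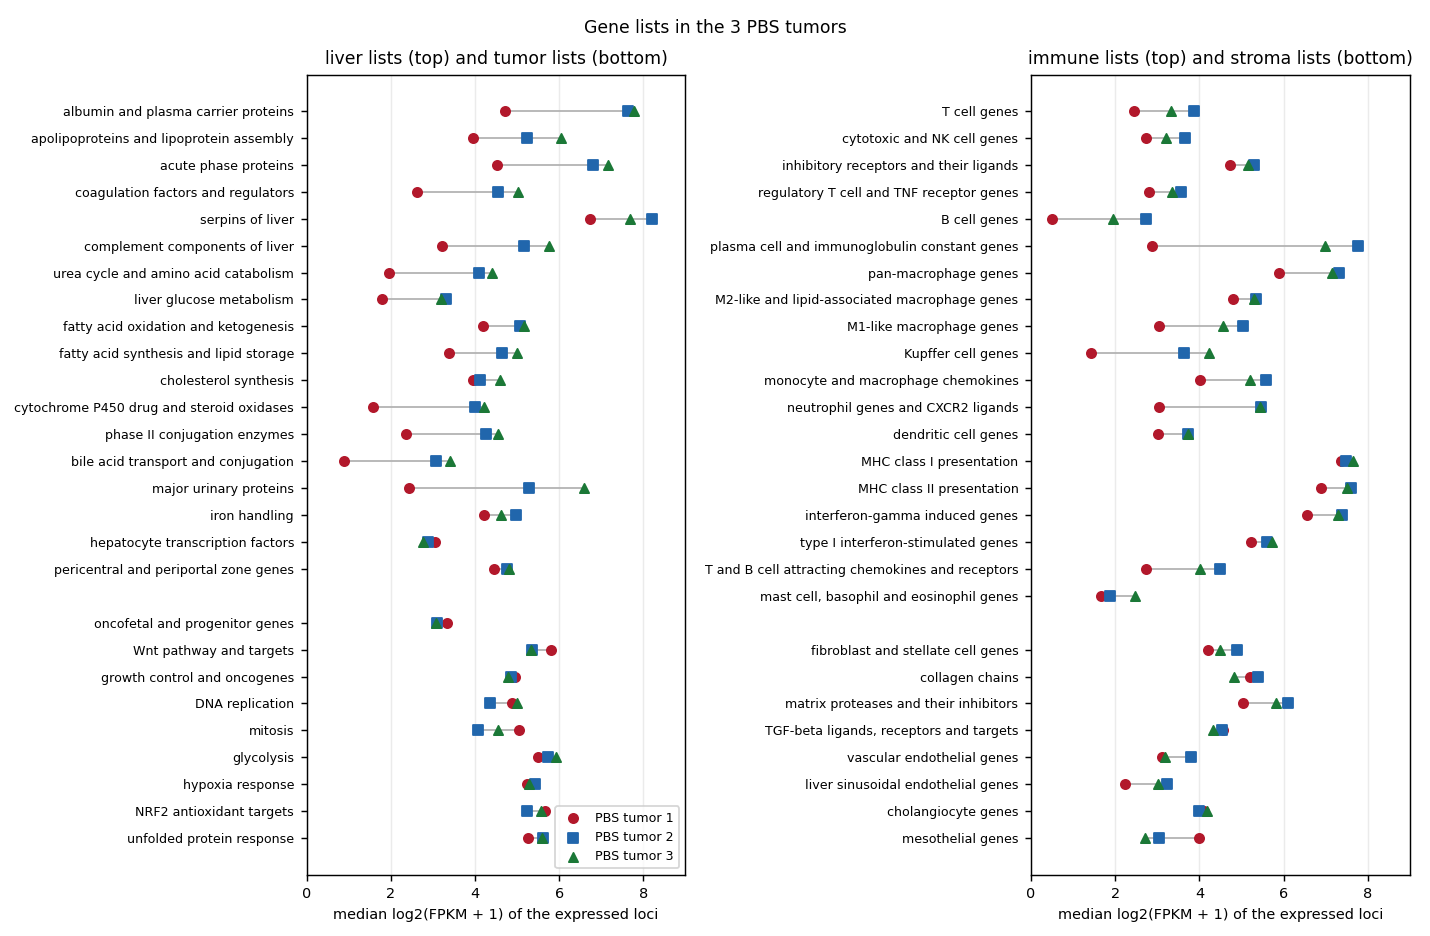
Median log2(FPKM + 1) of the expressed loci of each gene list (x axis), with liver lists above tumor lists on the left and immune lists above stroma lists on the right. Circles, squares and triangles are PBS tumors 1, 2 and 3, 1 mouse each, and gray lines join them. The circle of tumor 1 is leftmost for 17 of 18 liver lists and for all 19 immune lists.

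Markers of other cells that belong to the liver itself were also low in tumor 1. The 4 Kupffer cell markers Clec4f, Vsig4, Timd4 and Cd5l summed to 3.97, 51.8 and 105 FPKM, and all 4 were low in tumor 1. Clec4f, a lectin of Kupffer cells, was at 1.14, 13.4 and 37.2 FPKM, and Cd5l, a protein secreted by tissue macrophages, at 1.76, 24.3 and 45.2 FPKM. The 4 sinusoidal endothelial markers Stab2, Clec4g, Oit3 and Gpr182 summed to 1.63, 17 and 18.6 FPKM, and again all 4 were low in tumor 1. Stab2, a scavenger receptor of sinusoids, was at 0.132, 3.72 and 4.21 FPKM. In tumor 1 no sinusoidal marker reached 1 FPKM, and Gpr182 was listed at 0 there. Tumors 2 and 3 did not keep the order of the liver lists in every such gene. Of the 15 expressed loci of the whole sinusoidal list 12 were highest in tumor 2 and 3 in tumor 3, with medians of 2.22, 3.23 and 3.01, and of 14 Kupffer cell loci 6 were highest in tumor 2 and 7 in tumor 3. The part of liver tissue at the tumor edge in the liver values was not tested.

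Secreted proteins were among the most abundant liver products. Trf, which carries iron in plasma, was at 258, 1044 and 1586 FPKM, and Hpx, which binds heme, at 141, 770.3 and 1799 FPKM. Of 20 expressed albumin and carrier loci 19 were low in tumor 1 and 18 highest in tumor 3. Ttr, the carrier of thyroid hormone and retinol-binding protein, was at 18.5, 200.3 and 210.1 FPKM, 10.8 times as high in tumor 2 as in tumor 1. Ahsg, a mineral-binding plasma glycoprotein, was at 35.8, 324 and 470.3 FPKM. Itih2, a heavy chain of the hyaluronan-binding inter-alpha-trypsin inhibitor, was the exception in this list at 47.9, 44.7 and 54.5 FPKM, whereas its relatives Itih1, Itih3 and Itih4 were at 1.85, 17.8 and 28.1, at 5.01, 42.7 and 75.6 and at 9.72, 79 and 123 FPKM. A1bg was listed at 0 in all 3 tumors.

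Apolipoproteins showed the same order with less uniformity. Apoa1 and Apoa2, the main proteins of high-density lipoprotein, were at 72.7, 483 and 937 and at 89.2, 779.8 and 1081 FPKM. Apob, the scaffold of very-low-density lipoprotein, was at 6.93, 37.8 and 87 FPKM. Low in tumor 1 were 12 of 18 loci. The loci that were not included Apoe, above. The joined locus of Apoc2 and Apoc4 was lowest in tumor 2, at 226, 174 and 323 FPKM.

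Acute phase proteins, which the liver secretes in inflammation, were among the steepest. The joined locus of Saa1 and Saa3 was at 283, 3552 and 3164 FPKM, and Saa2 at 88.9, 415 and 1224 FPKM. Hp, which binds free hemoglobin, was at 145, 1309 and 2127 FPKM, and Lcn2, an iron-sequestering protein made by hepatocytes and by neutrophils, at 68.9, 601 and 1050.5 FPKM. All 14 loci were lowest in tumor 1, 11 were called low there, and 3 were high in tumor 3. Crp, which is a minor acute phase protein in the mouse, was at 2.28, 19.2 and 32.9 FPKM. Hamp, the hormone hepcidin that limits iron release, was at 26.1, 181 and 529 FPKM in a locus with Hamp2 and was high in tumor 3.

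The fibrinogen chains led the coagulation list. Fgg, Fga and Fgb were at 43.3, 243 and 465, at 36.8, 230.04 and 414 and at 17.9, 107 and 303 FPKM. F2, prothrombin, was at 7.13, 65.1 and 94.2 FPKM and Plg, plasminogen, at 5.28, 61 and 98.6 FPKM. Of 23 coagulation loci 19 were low in tumor 1 and 21 highest in tumor 3. F9, the factor lacking in hemophilia B, was at 0.304, 5.05 and 8.52 FPKM. Serpinc1, antithrombin, was listed at 0 in tumor 1 and at 88.7 and 129 FPKM in tumors 2 and 3, with the 0 in an entry under a Cufflinks identifier, so that its call in tumor 1 may come from a failed estimate.

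Complement and protease inhibitor loci differed in how far they spread between tumors. Of 20 complement loci 16 were low in tumor 1. C3, the central component, was at 92.5, 601 and 603 FPKM, and C8a, a subunit of the membrane attack complex, at 2.22, 16.1 and 28.6 FPKM. Clu, a chaperone-like inhibitor of that complex, was nearer in level at 269.8, 446 and 609.6 FPKM, as were the locus of C2 and Cfb at 115, 241 and 312 FPKM and C4b at 132, 217 and 152 FPKM. The joined Serpina1 locus of alpha-1-antitrypsin was at 162, 1020.04 and 1267 FPKM, and the joined locus of Serpina3k at 102, 507 and 546 FPKM. Serping1, the inhibitor of C1 made by many cell types, was at 193, 542 and 354 FPKM. Only 2 of 6 expressed serpin loci were called low in tumor 1, although all 6 were lowest there. Serpina3c was listed at 0 in all 3 tumors.

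The major urinary proteins were the only liver list with every expressed locus low in tumor 1. They are small pheromone carriers that adult hepatocytes secrete, and their genes are near-identical copies whose reads the authors' counting could split among them. All 19 expressed Mup loci were low in tumor 1 and 16 were also high in tumor 3. Mup22, Mup20 and Mup10 were at 32, 255 and 640.4, at 21.2, 239.8 and 488 and at 18.3, 154 and 385 FPKM. Summed over the list they reached 148, 1231 and 2866 FPKM. Mup4, Mup5 and Mup6 were listed at 0 in all 3.

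Enzymes of urea synthesis and amino acid breakdown were all lowest in tumor 1, in 27 of 27 expressed loci, and 21 were called low there. Cps1, which starts the urea cycle, was at 1.46, 10.6 and 13.7 FPKM and Otc, its next enzyme, at 0.586, 4.89 and 9.26 FPKM. Arg1, arginase, was far higher at 68.9, 249 and 348 FPKM, and it is also a gene of M2-like macrophages. Glul, which makes glutamine and marks pericentral hepatocytes, was at 76.7, 159 and 109 FPKM. Fah, the last step of tyrosine breakdown, differed little at 85.7, 96 and 96.3 FPKM. Sds, serine dehydratase, was listed at 0 in all 3 tumors in entries under Cufflinks identifiers.

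Glucose genes of the liver were low in level. Khk, fructokinase, was at 17.1, 63.5 and 55.4 FPKM. Fbp1, of gluconeogenesis, was at 2.82, 30.5 and 47.4 FPKM, Pck1, an early enzyme of the same route, at 0.355, 5.14 and 8.68 FPKM, and G6pc, which releases free glucose, at 0.21, 3.01 and 4.33 FPKM. Low in tumor 1 were 12 of 16 expressed loci. Igfbp1, which binds insulin-like growth factors, was the single locus of the list called high in tumor 1, at 26.3, 12.6 and 12.3 FPKM. Fgf21, a fasting hormone, was under 1 FPKM in every tumor at 0.443, 0.901 and 0.962, and Tkfc was listed at 0.

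Fewer lipid enzymes than secreted proteins passed the call. In fatty acid oxidation 6 of 20 expressed loci were low in tumor 1. Acadl and Acadm, dehydrogenases of long and medium chains, were at 76.1, 60.9 and 71.9 and at 23.6, 25.6 and 26.7 FPKM. Ppara, the receptor that induces this pathway, was at 0.111, 2.48 and 1.71 FPKM. Low in tumor 1 as well were Bdh1, of ketone metabolism, and the peroxisomal enzymes Acaa1b and Ehhadh. In fatty acid synthesis and storage 6 of 21 loci were low in tumor 1. Plin2, which coats lipid droplets, was at 465, 315 and 399.9 FPKM, Fasn, the synthase, at 24.6, 24.1 and 25.8 FPKM, and Acly, which supplies acetyl-CoA, at 64.4, 48.6 and 52.4 FPKM. Scd1 and Scd2, which desaturate fatty acids, were at 43.3, 137 and 183 and at 128, 71 and 93.6 FPKM, the former lowest and the latter highest in tumor 1. Cidea, Cidec and Cyp4a14 were under 1 FPKM in all 3 tumors.

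Cholesterol synthesis genes were seldom called but mostly followed the order of the other liver lists. Of 20 expressed loci 0 were wide and 3 (15%) were low in tumor 1, 16 were lowest in tumor 1 and 16 highest in tumor 3, and the medians were 3.95, 4.12 and 4.59. Fdps, which makes farnesyl diphosphate, was at 57.5, 67.4 and 91.9 FPKM, Tm7sf2, a sterol reductase, at 42.8, 46.8 and 47.5 FPKM and Ebp, a sterol isomerase, at 32.8, 47.6 and 43.4 FPKM. Srebf2, the pathway's transcription factor, was at 25.2, 26.1 and 28.5 FPKM. Fdft1, squalene synthase, was under 1 FPKM in all 3 tumors.

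Detoxification was among the functions low in tumor 1. Of 24 expressed cytochrome P450 loci 19 were low there, and the list summed to 120, 773 and 761 FPKM. Cyp2e1, which oxidizes ethanol, was at 23.7, 319 and 273 FPKM, 13.4 times as high in tumor 2 as in tumor 1, and Cyp3a11, a broad drug oxidase, at 2.75, 44 and 78.3 FPKM. Por, the reductase that feeds electrons to these enzymes in most cell types, was level at 46.5, 48.7 and 50.3 FPKM. Cyp2b9 was listed at 0, and Cyp2b10 was under 1 FPKM in every tumor at 0.0912, 0.185 and 0.114. Of 30 expressed conjugating loci 25 were low in tumor 1. Adh1, alcohol dehydrogenase, was at 10.5, 149 and 153 FPKM, and the joined locus of Gstm1 to Gstm3 at 58.6, 263 and 241 FPKM. The joined locus of Gstp1 and Gstp2, glutathione transferases of another class, was less spread at 202, 268 and 349 FPKM.

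Bile acid genes had the lowest median of any liver list in tumor 1, where the log2(FPKM + 1) was 0.89, against 3.07 and 3.4. In tumor 1 only 8 of their loci reached 1 FPKM, and the other loci counted as expressed passed through tumors 2 and 3. Cyp7a1, the rate-limiting enzyme of bile acid synthesis, was at 0.0512, 2.73 and 1.36 FPKM and Cyp8b1, which sets the kind of bile acid, at 0.476, 2.4 and 1.7 FPKM. Abcb11, the export pump, was at 0.421, 7.38 and 8.91 FPKM, and Slco1b2, an uptake carrier of the sinusoidal side, at 2.24, 37.9 and 31.3 FPKM. Slc10a1, the main uptake carrier, was at 1.35, 0 and 9.54 FPKM, with the 0 of tumor 2 under a Cufflinks identifier. Hsd3b7, joined with Setd1a, led the list at 37.9, 64.6 and 59.98 FPKM. Of 17 expressed loci 13 were low in tumor 1. Slco1a4 was under 1 FPKM in all 3 tumors, at 0.0702, 0.337 and 0.26.

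Iron and zonal genes were low in tumor 1 in part. Of 13 expressed iron loci 8 were low in tumor 1, Fth1 among them and Ftl1 not. Tfrc, the receptor by which dividing cells take up iron, was in the opposite order at 17.5, 10.2 and 13.1 FPKM. Bmp6 was listed at 0, and Heph was under 1 FPKM at 0.0275, 0.771 and 0.507. Of 17 expressed zonal loci 8 were low in tumor 1, among them the cytochromes Cyp1a2, at 2.22, 41.4 and 26.8 FPKM, and Cyp2f2, at 0.376, 2.49 and 3.99 FPKM. Ctsc, a lysosomal protease that immune cells share, was at 86.8, 292 and 181 FPKM.

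Hepatocyte transcription factors were the single liver list whose median was not lowest in tumor 1, with medians of 3.04, 2.87 and 2.76. By locus, 12 of 24 expressed loci were still lowest in tumor 1, 7 in tumor 2 and 5 in tumor 3. Hnf4a, the master regulator of hepatocyte identity, was at 12.6, 11.2 and 12.4 FPKM, a range of 0.16. Foxa2, a pioneer factor, was highest in tumor 1 at 60.5, 28.3 and 43 FPKM. Cebpb, a factor of the acute phase, led the list at 119, 305 and 338 FPKM, followed by Xbp1, of the secretory stress response, at 99.6, 173 and 174 FPKM and Atf5 at 101, 93.1 and 81 FPKM. Among the loci low in tumor 1, Nr1h4, the bile acid receptor, was at 0.856, 6.95 and 6.38 FPKM, Nr1i2, a drug sensor, at 0.109, 1.55 and 2.22 FPKM, and Creb3l3, a liver-restricted stress factor, at 0.494, 8.74 and 10.8 FPKM. In all 7 of 24 expressed loci were low in tumor 1. Nr1i3 was listed at 0 in all 3 tumors, and Esrra and the locus of Nr1h3 in tumors 2 and 3, each under a Cufflinks identifier. Esrra and the locus of Nr1h3 were the 2 loci of the list called high in tumor 1. Their 0 values enter the medians of tumors 2 and 3, and the order of the medians without them was not computed.

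**Figure D2:**
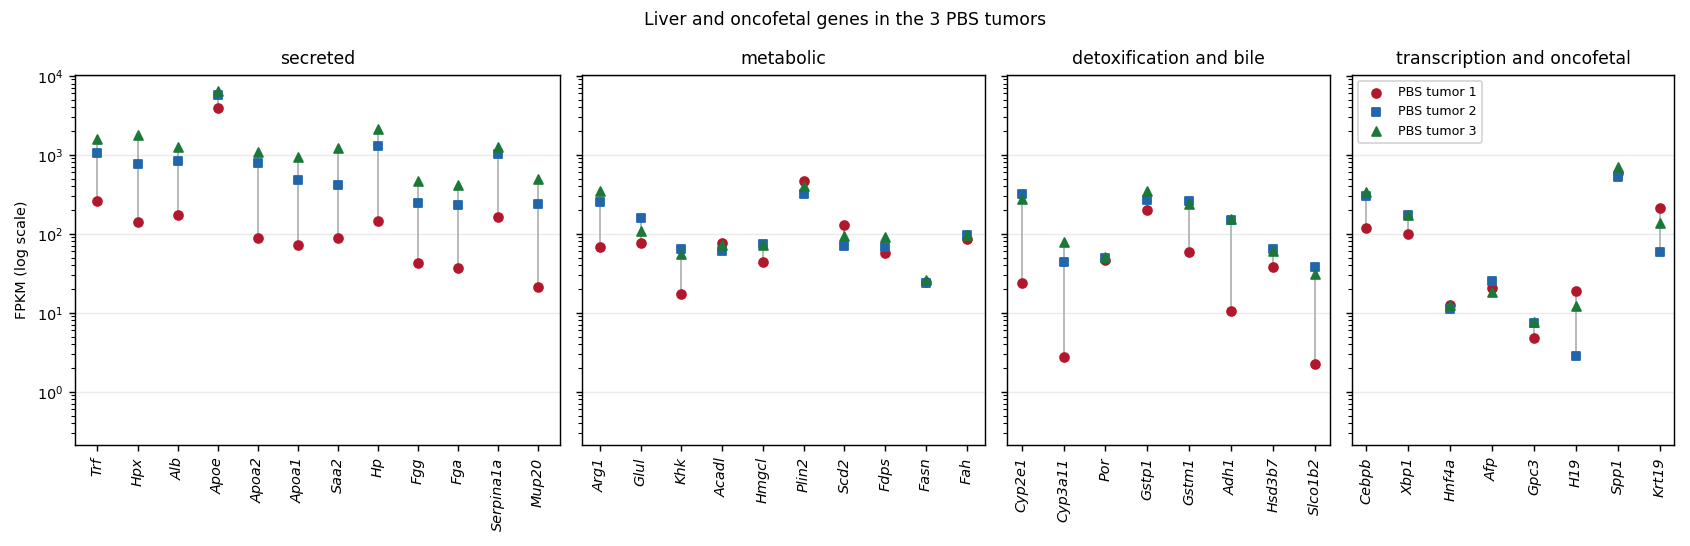
FPKM (log scale, y axis) of liver genes by function and of oncofetal genes, with PBS tumors 1, 2 and 3 as circles, squares and triangles joined by gray lines. Secreted proteins and drug oxidases such as Mup20 and Cyp3a11 spread over more than the range called wide, whereas Hnf4a, Afp, Por, Fasn and Fah lie close together in the 3 tumors.

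Genes of the fetal liver and of progenitor cells ranged widely in level. Of 31 loci 24 were expressed, and 2 of them (8.33%) were wide, near the 8.72% of all expressed loci. Spp1, osteopontin, made by progenitor-like tumor cells, bile duct cells and macrophages, was at 585, 523 and 699.6 FPKM, and Tspan8, a tetraspanin of epithelial tumors, at 217, 100.05 and 153 FPKM. Cd44, the hyaluronan receptor, was at 152, 157 and 134 FPKM. Gpc3, a hepatoma surface proteoglycan, was at 4.78, 7.41 and 7.67 FPKM. H19, an imprinted fetal RNA, was low in tumor 2 at 19.1, 2.87 and 12 FPKM, whereas Igf2, its imprinted neighbor, was near 1 FPKM at 1.12, 0.805 and 1.92. Cdh17, a cadherin of the intestine and of liver tumors, was high in tumor 1 at 20.1, 4.61 and 5.24 FPKM. Dlk1, Lin28b, Peg3, Peg10 and Sall4 were under 1 FPKM in all 3 tumors.

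Krt19 and Krt7, keratins of bile duct and progenitor cells, belonged to the strong epithelial signal. Krt19 was at 212, 58.9 and 136 FPKM and low in tumor 2, and Krt7 was at 64.6, 23.8 and 17.7 FPKM and high in tumor 1. Krt18 and Krt8 (joined with Krt5), the keratins of simple epithelia and of hepatocytes, were at 473, 284 and 404 and at 255, 129.8 and 189 FPKM. Tff2, a secreted trefoil peptide listed with bile duct genes, was at 586, 251 and 323 FPKM. Epcam, also of bile duct and progenitor cells, went the other way at 2.14, 11.4 and 8.41 FPKM and was low in tumor 1. The bile duct channel Cftr and the secretin receptor Sctr were under 1 FPKM in every tumor.

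Wnt pathway genes were expressed at high levels, and none of 19 expressed loci was wide or called high or low in any tumor. Beta-catenin, the pathway's effector, is encoded by Ctnnb1, which was at 176, 148 and 134 FPKM. Feedback targets were abundant: Nkd1 was at 184, 115 and 128 FPKM, Axin2 at 77.3, 45.5 and 46 FPKM, Rnf43 at 157, 101 and 142 FPKM and Lgr5 at 50.9, 26.1 and 27.3 FPKM. Sp5, a transcription factor that Wnt induces directly, was at 109.9, 51.4 and 70.9 FPKM, and Notum, which inactivates Wnt proteins, at 55.3, 68.1 and 39.5 FPKM. Of these 19 loci 15 were highest in tumor 1. Dkk1, an inhibitor, was listed at 0 in all 3.

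Of 29 expressed loci of cell growth 0 were wide and 1 was low in tumor 1. Ccnd1 and Cdk4, which drive entry into the cell cycle, were at 188, 109 and 118 and at 188, 116 and 172 FPKM. Mdm2, which degrades p53, was at 185, 113 and 155 FPKM and Trp53 itself at 127, 92.5 and 93.9 FPKM. Myc was at 63.9, 40.2 and 45 FPKM. Cdkn1a, a p53 target that arrests the cycle, was lowest in tumor 1 at 50.5, 91.4 and 91.2 FPKM, and Cdkn2a, a locus of cell cycle inhibitors, was at 70.5, 45.2 and 74.8 FPKM. Fgf15 was listed at 0, and Mycn and Klb were under 1 FPKM.

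Proliferation genes were highest in tumor 1 and lowest in tumor 2. All 31 mitosis loci were expressed, 29 highest in tumor 1 and 30 lowest in tumor 2, with medians of 5.04, 4.07 and 4.55. Cdk1, the mitotic kinase, was at 201, 92.2 and 166 FPKM, Ube2c, of the mitotic exit, at 178, 67.5 and 147 FPKM, and Mki67, the proliferation antigen, at 32.5, 20.3 and 24.4 FPKM. Birc5, survivin, sits in a locus with 3 further genes and was level at 202, 207 and 218 FPKM. Few of these differences reached the call: 3 mitosis loci were low in tumor 2 and 0 were wide. Replication genes followed, with 24 of 25 lowest in tumor 2. Pcna, the replication clamp, was at 125, 88.3 and 115 FPKM, and Mcm6 and Mcm7, of the replicative helicase, were at 80.6, 55.6 and 66.4 and at 91.2, 52.7 and 68.6 FPKM. Tk1 and Orc6 were listed at 0 in tumor 2 under Cufflinks identifiers, and they are the 2 replication loci called low there.

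All 24 glycolysis loci were expressed, and 2 (8.33%) were wide and 3 (12.5%) low in tumor 1, near the shares of all expressed loci. Aldoa, the muscle-type aldolase of growing cells, was at 1468, 1037 and 1158 FPKM, and Ldha, which makes lactate, at 934, 709.7 and 896 FPKM. Pkm, the pyruvate kinase of tumors, was at 895, 727 and 839.7 FPKM, against 2.09, 9.05 and 6.66 FPKM for Pklr, the kinase of adult liver. Hk2, the hexokinase of tumors, was at 40.05, 44.3 and 50.1 FPKM. Slc2a1, the glucose transporter of growing cells, was at 48.6, 56.9 and 94.6 FPKM, against 0.255, 5.61 and 3.78 FPKM for Slc2a2, that of hepatocytes. In each of these pairs the form of growing cells exceeded the liver form in all 3 tumors.

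Hypoxia targets included Anxa2 at 967, 457 and 758 FPKM, Bnip3, of mitochondrial removal, at 135, 108 and 111 FPKM, Ndrg1 at 106, 62.4 and 70.1 FPKM, and Vegfa, the vessel growth factor, at 60.04, 66.5 and 50.8 FPKM, with 1 of 23 loci wide. NRF2 targets, of which 2 of 23 were wide and 3 low in tumor 1, were led by Prdx1, a peroxidase, at 439.8, 719 and 859 FPKM, Txn1, thioredoxin, at 445, 335 and 649 FPKM and Gpx4, which protects lipids from oxidation, at 339, 271 and 388 FPKM. Nqo1, the usual reporter of NRF2, was only at 2.82, 1.91 and 1.93 FPKM. Hmox1, which degrades heme in macrophages and stressed cells, was low in tumor 1 at 30.4, 139.9 and 176 FPKM. Chaperones of the secretory pathway were the last of these, with Hsp90b1 at 376, 437 and 409 FPKM, Calr at 372, 426 and 382 FPKM and Pdia3 at 285, 327 and 363 FPKM. Over the 9 tumor lists together, 10 of 217 expressed loci (4.61%) were wide and 12 (5.53%) low in tumor 1, below the 8.72% and 9.13% of all expressed loci.

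**Figure D3:**
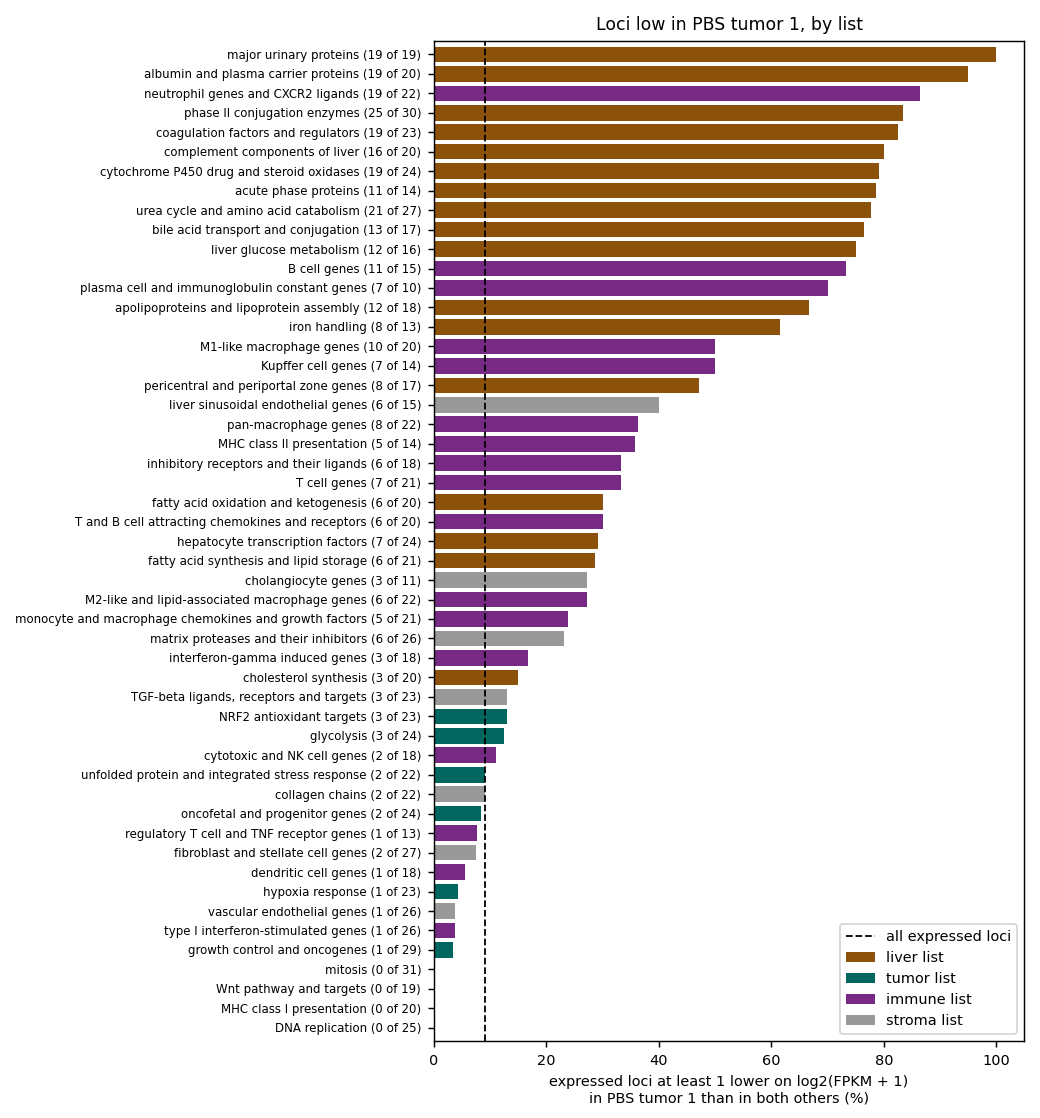
Share of the expressed loci of each list that were low in PBS tumor 1 (x axis, percent), for lists of at least 10 expressed loci, colored by class. The dashed line is the 9.13% of all expressed loci. Major urinary proteins, albumin and carriers, and neutrophil genes stand at the top, and Wnt, replication, mitosis and MHC class I lists at 0.

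The loci of the 19 immune lists held 4.27%, 10.8% and 8.90% of named FPKM. These lists name no immunoglobulin variable segments, which are counted further below. They include Apoe and Spp1, which other cells make as well, so the share is no total of immune transcripts. Of 336 immune loci 308 were expressed, 74 (24%) were wide, 99 (32.1%) were low in tumor 1 and 19 were high in tumor 2. The highest value lay in tumor 2 for 64.3% of them, and not in tumor 3 as for most liver loci. All 19 list medians were lowest in tumor 1. Without the loci that hold a 0, 95 of 297 (32%) were low in tumor 1.

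Macrophage genes held 0.414%, 1% and 0.85% of named FPKM. The locus of Lyz2 and Lyz1, lysozyme of myeloid cells, was at 603, 2287 and 1893 FPKM, and Ctsb and Ctss, lysosomal cathepsins, were at 338, 675 and 709 and at 262, 703 and 626 FPKM. C1qa, of the complement initiator that tissue macrophages make, was at 228, 375 and 294 FPKM. The surface markers were lower: Adgre1, a macrophage adhesion receptor, was at 15.2, 37 and 30.2 FPKM, Itgam, CD11b, at 15.5, 44.7 and 42 FPKM, Csf1r, the receptor for macrophage growth factor, at 35.1, 95.3 and 89.6 FPKM and Cd68 at 51.8, 110.1 and 103 FPKM. All 22 pan-macrophage loci were lowest in tumor 1, and 8 were called low there.

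Of 20 expressed loci of the M1-like (inflammatory) macrophage list 10 (50%) were low in tumor 1. For the M2-like (immunosuppressive) list they were 6 of 22 (27.3%), a difference that was not tested. The share was 32.1% over all immune loci and 9.13% over all expressed loci. Il1b, the fever cytokine, was at 36.5, 576 and 568 FPKM, and Nos2, which makes nitric oxide, at 5.59, 55 and 55.4 FPKM. Tnf was at 2.63, 29.1 and 17.9 FPKM and Il12b, a subunit of IL-12, at 0.723, 4.97 and 0.905 FPKM. Ccl5, which attracts T cells, was high in tumor 2 at 108, 519 and 247 FPKM, and Cxcl10, an interferon-induced chemokine, was at 163, 292 and 273 FPKM. Cd86, a costimulatory ligand, was at 5.73, 14.2 and 12.7 FPKM, and Cd80, its relative, at 0, 9.97 and 10.9 FPKM with the 0 of tumor 1 under a Cufflinks identifier. Cd80 is counted among the 10 loci low in tumor 1. Il12a was under 1 FPKM in all 3.

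On the M2-like side Mrc1, CD206, was at 12.1, 20.5 and 14.9 FPKM, with no call in any tumor. Trem2, of lipid-laden macrophages, was at 11.4, 30.7 and 35.8 FPKM and Gpnmb, of the same state, at 22.5, 47 and 47.4 FPKM. Tgfb1 was nearly level at 113, 104 and 102 FPKM, and Il10 was at 0.579, 1.72 and 0.63 FPKM. Retnla, a lung and alternative activation gene, was the single locus of the list called high in tumor 1, at 20.8, 0.157 and 0.711 FPKM. Chil3, often used as its companion, was high in tumor 3 at 2.37, 4.13 and 14.2 FPKM. Folr2 was listed at 0 in all 3 tumors. The list is led by Apoe and Spp1, which tumor and liver cells make as well.

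Recruitment signals for monocytes were uneven. Ccl3 and Ccl4, inflammatory chemokines, were at 12.8, 415 and 178 and at 15.3, 235 and 132 FPKM, both low in tumor 1. Ccl2 and Ccl7, ligands of CCR2, differed little, at 34.7, 63.4 and 33.2 and at 35.6, 55.3 and 35.8 FPKM. Csf1, the macrophage growth factor, was at 12.9, 24.3 and 18.8 FPKM. The locus that joins Ly6c2 with Ly6a and 3 others led at 718, 1125 and 948 FPKM, and the locus of Ccl6 and Ccl9, chemokines of myeloid cells, was at 287, 525 and 472 FPKM. Of the 21 loci 5 were low in tumor 1. The Kupffer cell list, whose defining markers are given above, held 7 of 14 low in tumor 1, and its leading genes Id3, at 49, 109 and 81.5 FPKM, and Cdh5 are not restricted to Kupffer cells.

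Neutrophil genes gave the largest share of low calls of any immune list, 19 of 22 in tumor 1. S100a9, a calcium-binding alarmin of neutrophils, was at 83.8, 1160.1 and 1140.5 FPKM, whereas the locus of S100a8, which also holds S100a6 of many cell types, was at 849, 1179 and 1346 FPKM. Csf3r, the receptor for neutrophil growth factor, was at 9.72, 48.7 and 45.7 FPKM and Cxcr2, the receptor that draws neutrophils, at 3.41, 21.5 and 19 FPKM. Its ligands were lowest in tumor 1 as well, with the locus of Cxcl2 and Cxcl3 at 52.9, 835 and 614 FPKM, Cxcl1 at 7.97, 49.3 and 37.7 FPKM and Cxcl5 at 10.7, 101 and 39.9 FPKM. Genes of immature neutrophil granules were high in tumor 3: Ngp was at 1.48, 9.69 and 28.3 FPKM, Camp at 0.207, 7.15 and 21.3 FPKM and Elane at 0.141, 0.429 and 6.62 FPKM. With Ltf and Mpo these were the 5 of 22 loci of the list called high in tumor 3, against 1.37% of all expressed loci. Elane counted as expressed through tumor 3 alone, so its high call follows in part from that filter.

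T cell genes were low in level and highest in tumor 2, in 19 of 21 loci. Cd3e, of the T cell receptor complex, was at 7.79, 22.9 and 17.5 FPKM, and the joined Trac locus at 26.9, 49.7 and 25.4 FPKM. Cd8a, of cytotoxic T cells, was high in tumor 2 at 5.81, 24.4 and 5.96 FPKM, with tumors 1 and 3 almost equal. Cd4 was at 2.22, 13.6 and 6.04 FPKM. Tcf7, which encodes the factor TCF-1 of stem-like T cells and is also part of the Wnt list, led by level and had the opposite order at 158, 80.7 and 135 FPKM. It exceeded Cd3e in every tumor. Foxp3, of regulatory T cells, was at 0, 2.54 and 0 FPKM, and the 0 of tumors 1 and 3 stood under Cufflinks identifiers.

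Effector genes followed the T cell genes. Gzmb and Gzmc, granzymes, were at 14.1, 44.8 and 26.2 and at 31.1, 46.3 and 33.2 FPKM, and Nkg7, of cytotoxic granules, at 16.8, 47.7 and 26 FPKM. Ifng was at 1.44, 7.56 and 3.39 FPKM and Prf1, perforin, at 6.99, 13.3 and 6.7 FPKM. The natural killer receptors Ncr1, Klra4 and Klra8 were under 1 FPKM in all 3 tumors, while the locus of Klrb1c was at 4.09, 10.6 and 19.5 FPKM. Of 18 expressed cytotoxic loci 2 (11.1%) were low in tumor 1, near the 9.13% of all expressed loci.

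The checkpoint receptors PD-1 and TIM-3 were lower in level than their ligands. Pdcd1, PD-1, was at 1.44, 8.65 and 3.18 FPKM and high in tumor 2. Its ligands Cd274, PD-L1, and Pdcd1lg2, PD-L2, were at 25.3, 87.1 and 96 and at 25.3, 22.4 and 33.3 FPKM, and Cd274 was low in tumor 1. Ctla4 was at 1.08, 7.25 and 3.18 FPKM and Havcr2, TIM-3, at 3.64, 5.85 and 4.87 FPKM. Lgals9, a ligand of TIM-3, was at 95.2, 98.6 and 124 FPKM and Cd47, which signals to macrophages through Sirpa, at 80.2, 79.3 and 89.9 FPKM. The loci of Lag3 and of Tigit read 647, 445 and 484 and 155, 78.4 and 145 FPKM, but the former is joined with Ptms and the latter with 2 unnamed genes, and the FPKM of a joined locus cannot be split. Cd160 and Nectin2 were listed at 0 in all 3. Among costimulators Tnfrsf9, 4-1BB, was at 55.7, 127 and 82 FPKM, the locus of Tnfrsf4, OX40, at 69.95, 111 and 107 FPKM, and Tnfsf9, the 4-1BB ligand, at 24.1, 19.1 and 22.4 FPKM. Ccr4 and Cd70 were under 1 FPKM.

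B cell and plasma cell genes were mostly low in tumor 1. Cd79a and Cd79b, of the B cell receptor, were at 0.422, 23.6 and 13.1 and at 0.869, 27.7 and 15.5 FPKM, and Ms4a1, CD20, was at 0.125, 7.76 and 4.13 FPKM. Pou2af1, a coactivator of B cells, was at 0.219, 24.6 and 10.6 FPKM. Of 15 expressed B cell loci 11 were low in tumor 1 and 15 highest in tumor 2. In tumor 1 only 4 B cell loci reached 1 FPKM, and the others counted as expressed passed through tumors 2 and 3. Their low calls in tumor 1 follow in part from that filter. Pax5, the B lineage factor, was level and low at 1.07, 1.98 and 1.32 FPKM. Jchain, which joins secreted IgA and IgM, was at 6.24, 486 and 236 FPKM and Mzb1, a chaperone of antibody secretion, at 4.42, 130.1 and 43.8 FPKM. Both were low in tumor 1 and high in tumor 2. The joined Iglc1 locus, a lambda chain, was at 5.24, 719.9 and 727 FPKM.

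Immunoglobulin loci as a whole were 170 of the expressed loci, and 150 of them were low in tumor 1, against 9.13% of all expressed loci. They held 0.0843%, 12.5% and 7.32% of named FPKM. The highest value lay in tumor 2 for 86 and in tumor 3 for 83 of them. Some variable segments lay far apart in these 2 tumors, in both directions. Ighv1-59, a heavy chain variable segment, was at 0, 3034 and 148 FPKM, Ighv1-50 at 0.436, 2027 and 59.2 FPKM and Ighv1-82 at 1.81, 3336 and 119.6 FPKM, all with tumor 2 far above tumor 3. Ighv1-64 was at 0.773, 264 and 1625 FPKM, Ighv1-49 at 0, 7.81 and 1372 FPKM and Igkv4-57, a kappa segment, at 0, 134 and 1533 FPKM, all with tumor 3 far above tumor 2. At least 1 FPKM was reached by 74, 163 and 161 of these loci. Those under 1 FPKM in tumor 1 counted as expressed through tumors 2 and 3, and their low calls in tumor 1 follow in part from that filter. Variable segments are near-identical copies, and reads could be split among them.

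Antigen presentation genes were abundant in all 3 tumors. Of 20 MHC class I loci 0 were low in tumor 1, against 5 of 14 MHC class II loci (35.7%), and the class II list summed to 3533, 7346 and 5168 FPKM. The joined locus of H2-D1 and the H2-Q genes was at 1112, 2119.9 and 1773 FPKM, the locus of H2-K1 at 813, 1829 and 1252 FPKM, and Tap1, the peptide transporter, at 71, 127 and 117 FPKM. Psmb8 and Tap2, of the immunoproteasome and of peptide transport, were listed at 0 in tumor 2 alone, at 244, 0 and 289 and at 58.6, 0 and 64 FPKM, both under Cufflinks identifiers. Their partners Psmb9 and Tap1 were not at 0 in tumor 2, where Psmb9 was at 133 FPKM. For MHC class II, Cd74, the invariant chain, was at 1385, 2855 and 1875 FPKM, H2-Eb1 at 545, 986 and 698 FPKM and H2-Ab1 at 446, 966 and 611 FPKM, all highest in tumor 2. Ciita, the class II activator, was high in tumor 2 at 8.89, 27.9 and 13.2 FPKM. H2-DMa and H2-DMb1, which load peptides, were listed at 0 in tumor 1 and in tumor 3 in turn, under Cufflinks identifiers, at 0, 113 and 100.03 and at 78.6, 112 and 0 FPKM.

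Interferon genes were among the immune lists least spread between tumors. Of 26 type I interferon loci 1 was low in tumor 1, namely the locus of Stat2, which is joined with the liver gene Apof. Ifitm3, which blocks viral entry, was at 752, 917 and 981 FPKM, Bst2, tetherin, at 322, 394 and 414 FPKM and the locus of Ifi27l2a at 180.4, 243 and 304 FPKM. Isg15, a ubiquitin-like protein, was at 121, 142 and 228 FPKM, and 20 of 26 loci were highest in tumor 3. Genes induced by interferon-gamma were highest in tumor 2 in 14 of 18 loci, with 3 low in tumor 1. The locus of Igtp and Irgm2, GTPases against intracellular pathogens, was at 199.7, 299 and 267 FPKM, the locus of Tgtp1 at 250.1, 265 and 225 FPKM, and Cxcl9, which draws T cells through CXCR3, at 139.7, 225 and 158 FPKM. Ido1, which depletes tryptophan, was at 43.3, 96.2 and 66.7 FPKM.

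Lymphoid chemokines and dendritic cell genes were modest. Ccl19, which guides cells to lymphoid tissue, was at 4.92, 109 and 56.4 FPKM, and Ccl21a, its relative, at 48.3, 68.3 and 38.9 FPKM with no call in any tumor. Cxcl13, which draws B cells, was at 0.456, 8.93 and 8.99 FPKM and low in tumor 1. Ccr7, the receptor of Ccl19, was at 5.45, 21.1 and 13.9 FPKM. Of 18 dendritic cell loci 1 (5.56%) was low in tumor 1, against 9.13% of all expressed loci. Itgax, CD11c, was at 21.1, 27.9 and 22.8 FPKM, Batf3, the factor of cross-presenting dendritic cells, at 13, 14.1 and 12.5 FPKM, and Flt3, their growth factor receptor, at 0.766, 3.64 and 1.65 FPKM. The joined locus of Clec9a and Clec1b was at 1.93, 6.28 and 0.432 FPKM. Of 19 mast cell, basophil and eosinophil loci 6 were expressed. Among these Hdc, which makes histamine, was low in tumor 1 at 2.78, 68.1 and 57.5 FPKM.

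**Figure D4:**
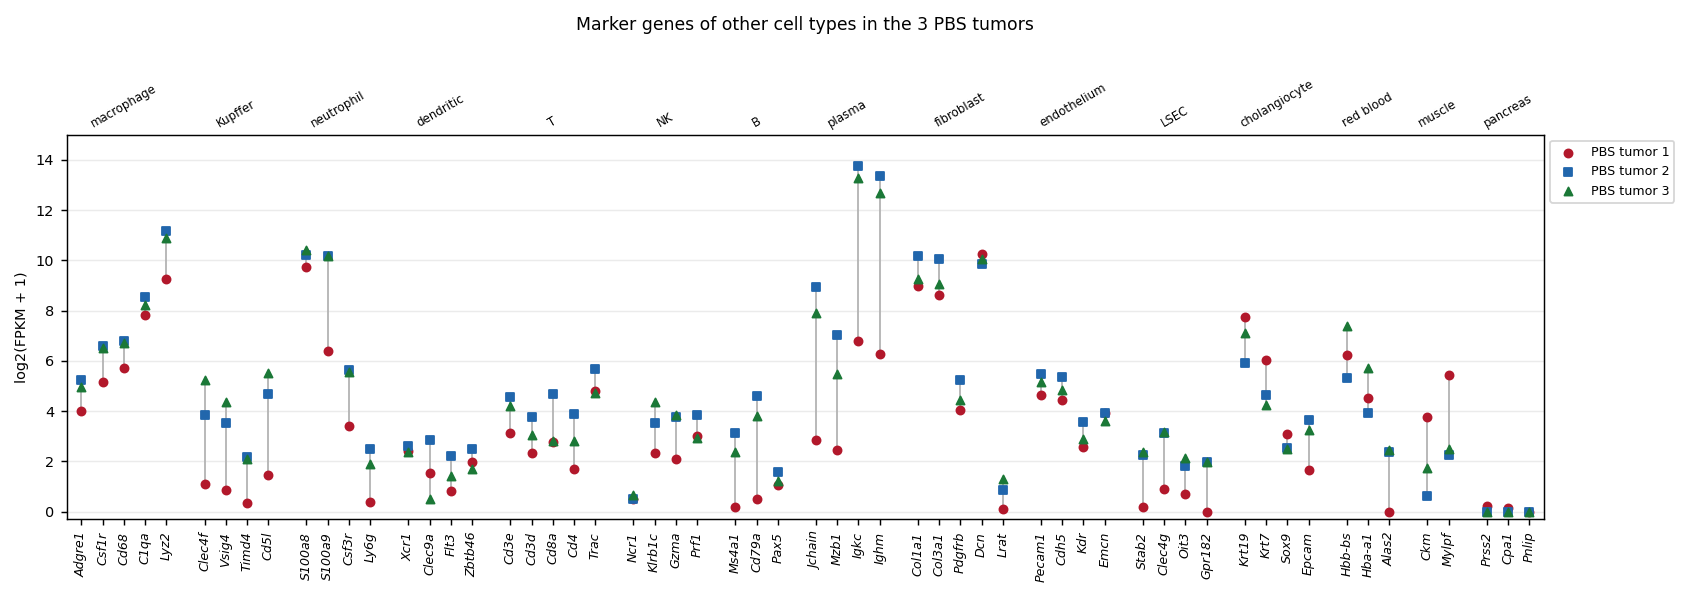
Log2(FPKM + 1) (y axis) of marker genes of other cell types, grouped by the cell type written above them (LSEC stands for liver sinusoidal endothelium), with PBS tumors 1, 2 and 3 as circles, squares and triangles. Kupffer, LSEC and plasma cell markers lie lowest in tumor 1, fibroblast and endothelial markers are called in no tumor, and pancreatic markers lie near 0 in all 3.

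Of 170 stromal loci 150 were expressed, 12 of them (8%) wide, near the 8.72% of all expressed loci, and 23 (15.3%) low in tumor 1, above the 9.13% of all, and 64.7% were highest in tumor 2. Dcn, a collagen-binding proteoglycan, was at 1202, 924 and 1060.01 FPKM, Sparc, a matrix glycoprotein, at 553, 1058 and 686 FPKM and Vim, the mesenchymal filament, at 644, 763 and 690.1 FPKM. The chains of fibrillar collagen were highest in tumor 2, with Col1a1 at 510.1, 1138 and 618, Col3a1 at 392, 1056 and 538 and Col1a2 at 364, 729.8 and 449.7 FPKM, without passing the call. Acta2, of contractile fibroblasts, was at 63, 119 and 149 FPKM and Pdgfrb, of pericytes and stellate cells, at 15.6, 36.7 and 20.7 FPKM. Lrat, which stores retinol in quiescent stellate cells, was at 0.0884, 0.828 and 1.48 FPKM. Mfap5, a microfibril protein, was high in tumor 1 at 51, 7.15 and 7.18 FPKM. Col2a1, Col4a3, Col4a4 and Col4a6 were under 1 FPKM in all 3.

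Matrix proteases held 5 wide loci, the most of any stromal list, and 6 of 26 expressed loci were low in tumor 1. Mmp3 and Mmp10, stromelysins, were high in tumor 2 at 6.9, 90.4 and 32.1 and at 1.72, 48.7 and 10.2 FPKM. Mmp12, the macrophage elastase, was at 164, 281 and 296 FPKM, Mmp14, a membrane-bound collagenase, at 211, 221 and 162 FPKM and Timp1, the common inhibitor, at 168, 258 and 199 FPKM. Fn1, fibronectin, was at 644, 583 and 369 FPKM and Tnc, tenascin of tumor stroma, at 211, 104 and 125 FPKM. In the TGF-beta list Tgfbi, a matrix target, was low in tumor 1 at 47.3, 146 and 133 FPKM, Tgfbr2, the ligand-binding receptor, was at 47.3, 58.2 and 42.2 FPKM and Smad3, its mediator, at 56.6, 33.2 and 45.1 FPKM.

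Vessel genes were highest in tumor 2 in 22 of 26 loci, with 0 wide and 1 low in tumor 1. Pecam1, CD31, was at 23.8, 43.5 and 34.6 FPKM, Cdh5, the endothelial cadherin, at 20.6, 40.3 and 27.6 FPKM, Plvap, of fenestrated vessels, at 30.9, 66 and 62.4 FPKM and Kdr, the main receptor of VEGF, at 4.92, 10.9 and 6.5 FPKM. Ecscr, in a locus with Dnajc18, led at 83, 82 and 67.6 FPKM. Of the sinusoidal list, by contrast, all 15 expressed loci were lowest in tumor 1 and 6 were called low there. Its leader, the locus of Fcgr2b, is joined with the macrophage gene Fcgr3, at 136, 310.2 and 295 FPKM, while Mrc1 and Maf, at 8.82, 16.2 and 12.3 FPKM, are shared with macrophages too. Msln, of mesothelium, which covers the liver, was at 18, 16.2 and 8.49 FPKM.

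**Figure D5:**
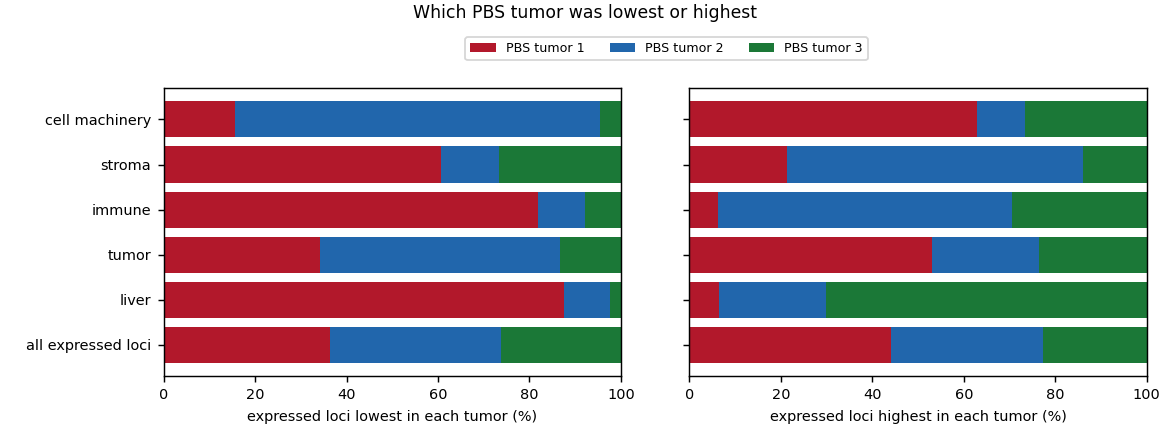
Share of the expressed loci of each class (percent, x axis) whose lowest value (left) or highest value (right) lay in PBS tumor 1, 2 or 3. Liver loci were lowest in tumor 1 for 87.5% and highest in tumor 3 for 70.2%, immune loci were highest in tumor 2 for 64.3%, and loci of the general cell machinery were lowest in tumor 2 for 79.9%.

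Markers of tissues foreign to a liver tumor were scarce, with an exception in tumor 1. Of 15 pancreatic acinar loci 13 were under 1 FPKM in all 3 tumors. Of 11 expressed skeletal muscle loci 9 were high in tumor 1, against 1.65% of all expressed loci. At least 1 FPKM was reached by 12, 4 and 7 of the 14 muscle loci found. Some therefore counted as expressed through tumor 1 alone, and their high calls follow in part from that filter. Myl1 and Atp2a1 were listed at 0 in tumor 2 under Cufflinks identifiers. Mylpf, a light chain of fast myosin, was at 42.7, 3.76 and 4.71 FPKM, Tnnt3, a troponin, at 19, 2.82 and 1.77 FPKM and Ckm, muscle creatine kinase, at 12.5, 0.528 and 2.33 FPKM. The cells these transcripts came from were not tested. Globins were highest in tumor 3, where the locus of Hbb-bs and Hbb-bt was at 75.1, 38.8 and 169 FPKM and Hba-a2 at 28.7, 19 and 64.5 FPKM. Pf4, of platelets, was low in tumor 1 at 56.2, 213 and 235 FPKM. Adipocyte genes were led by Fabp4 at 27, 39.9 and 37.7 FPKM, which endothelium and macrophages share, while Adipoq, the defining adipokine, was at 0.294, 0 and 0 FPKM. Of 9 nerve and glial loci 7 were under 1 FPKM in all 3.

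The loci with the widest range over the 3 tumors, at a mean of at least 5 FPKM, were immunoglobulin segments in all of the first 10 places. Besides those above they were Igkv8-16 at 0, 1565 and 17.6 FPKM, Ighv1-22 at 1.93, 2520.2 and 60.2 FPKM, the joined Ighv14-1 locus at 1.21, 1667 and 1444 FPKM and Ighv1-84 at 0, 726 and 54.4 FPKM. The 5 loci furthest above both other tumors in tumor 1 were Ube2k, Apex1, Rec114, Ccdc152 and Plgrkt, between 31.6 and 73.8 FPKM there and listed at 0 in both others. In tumor 2 Mgmt, a DNA repair enzyme, stood out at 6.73, 276 and 4.78 FPKM beside 4 immunoglobulin segments. In tumor 3 the locus of Nfkbie, which inhibits NF-kappaB, and Flot1 were at 0, 0 and 71.4 and at 0, 0 and 50.8 FPKM. Furthest below in tumor 2 were Psmb8, Znhit1, Camk2b, Tap2 and the locus of Dnhd1, and in tumor 3 H2-DMb1, Ehmt2, Nelfe, Igflr1 and Sgf29, all listed at 0 in the tumor named. Furthest below in tumor 1 were the Ighv14-1 locus, Igkv6-17, Ighv1-69, Igkv5-39 and Ighv1-81, 2 of them listed at 0.

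With loci that hold a 0 and immunoglobulin names set aside, a choice made after the values were seen, the widest loci were Slpi, Jchain, Mgmt, Ccl3, Ctse, Mzb1, Hcar2 and Acod1. Slpi, a protease inhibitor of epithelia and neutrophils, was at 9.86, 1409.8 and 889.7 FPKM, and Acod1, which makes itaconate in activated myeloid cells, at 6.65, 170.3 and 152 FPKM. Among the loci furthest below in tumor 1, G0s2, an inhibitor of lipolysis that neutrophils express, was at 5.45, 121 and 132 FPKM and Clec4e, a receptor of activated macrophages and neutrophils, at 3.9, 88.3 and 87.7 FPKM. The liver genes Akr1c6, a steroid dehydrogenase, and Rgn, a calcium-binding lactonase, were at 6.68, 115 and 114 and at 3.86, 77.3 and 70.8 FPKM. Slpi, Acod1 and these 4 were low in tumor 1, with tumors 2 and 3 less than 1 apart on the log2(FPKM + 1) scale. Snrpd3, of the spliceosome, was among the furthest below in tumor 2 at 83.8, 11.8 and 75.6 FPKM. Orm1, an acute phase glycoprotein joined with Orm2 and Orm3, was at 81.6, 554 and 1511 FPKM and high in tumor 3. Without the same loci 211 of 327 liver loci (64.5%) remained low in tumor 1.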

How the data were processed

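Tumors of 3 PBS-treated mice were grouped by their labels, and the other 6 tumors of the series were not used. The authors deposited a Cufflinks gene table for each tumor, with 1 FPKM value per entry. The submitters' processing notes name Bowtie2 2.2.4, TopHat2 2.1.1 and the build mm8. The coordinates in the tables were not used, since their build could not be settled. FPKM is relative to all mapped fragments, so a few abundant loci lower every other value.

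FPKM values were summed per gene name. Names that shared an entry in any of the 3 tumors were joined into 1 locus, except 19 repeated small RNA names, and 1 locus with a failed estimate was left out. Entries without a gene name were not used. Calls were made on log2(FPKM + 1) over loci with a mean FPKM of at least 1, in Python 3.11.15 with pandas 2.3.3 and numpy 2.4.6, and plotted with matplotlib 3.10.9. The calls were tested on simulated tables with known differences. Promoter sequences are RefSeq's.

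The 64 gene lists and the members were chosen with earlier results of these data known, and 13 listed names are not analysed here. Lists overlap, and 1334 of their genes were found. Genes were named by a rule: the most abundant loci, the 3 highest of each list, liver genes under 1 FPKM in all 3 tumors, the widest and the most deviant loci, cell type markers and genes the study measures. Some genes that the rule names are not reported here. Other genes named illustrate their list and were chosen after their values were seen. Alternatives were no joining, pseudocount 0.1, limits of 0.5 and 5 FPKM or none, and upper-quartile and equal-sum scaling. Loci with a 0, each tumor, and mitochondrial, small RNA, ribosomal, Gm and Rik names were also left out in turn.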

Additional observations from a re-analysis of the deposited data

Results flagged for a closer look

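Entries that name no gene, which were left out of every value above, held 81.5% of the summed FPKM of all entries in tumor 1, 50.3% in tumor 2 and 19.2% in tumor 3. They were set aside for a closer look because this is signal outside the gene measurements. In tumor 1 and in tumor 2 the largest such entry of that tumor carried most of it. The largest unnamed entry of each tumor was at 2808580, 576077 and 49408.2 FPKM in turn. Without it the unnamed share was 23.2%, 16.6% and 14.6%. These entries were not matched between tumors, so they need not be the same. The sums of named FPKM were 683779, 707536 and 743126, within a narrower span. The part of the unnamed entries in the differences between the tumors was not tested.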

How the results depend on the processing

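Of 159 values of 20 results under other settings, 134 stayed within a fixed fold of the value given. Some settings could not move a result. Without a limit on FPKM wide loci numbered 1133 again, since a range of at least 2 needs a level that passes the limit. Under no joining, a limit of 5 FPKM and loci with a 0 left out, in that order, wide loci numbered 2987, 719 and 601 in place of 1133, loci high in 1 tumor 1742, 329 and 355 in place of 636, high in tumor 1 574, 104 and 128, high in tumor 2 624, 120 and 132, high in tumor 3 544, 105 and 95, low in tumor 2 494, 111 and 90 and low in tumor 3 389, 50 and 27. A pseudocount of 0.1 gave 185 loci low in tumor 3. Without joining 2312 loci were low in 1 tumor, in place of 1485, and at 5 FPKM 14 stromal loci were low in tumor 1, in place of 23. List medians lowest in tumor 1 numbered 16 of 18 liver lists and 17 of 19 immune lists without joining, in place of 17 and 19. Leaving out 1 tumor at a time gave 319 to 908 wide loci, the lowest without tumor 1, where the calls for 1 tumor cannot be made. Low in tumor 1 were 178 to 224 liver loci and 82 to 116 immune loci over the alternatives. Of 72 marker gene ranges, scaling moved 0, pseudocount 0.1 moved 13 and no joining 8. Values for each tumor on its own, for classes and for marker genes were chosen after seeing the data. The causes were not tested. Depth is unknown, so how far it limits low values cannot be given. No paired analysis was possible because the 3 tumors form a single group.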

Other observations

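Genes of the sex chromosomes were looked at after the other values had been seen, because the hosts were male and the sex of the line is not given in the sources used here. Xist, the RNA that silences an X chromosome in female cells, was at 31.5, 27.7 and 13.9 FPKM in tumors 1, 2 and 3. The Y-linked genes Ddx3y, Eif2s3y, Kdm5d and Uty were at 4.36, 10.6 and 8.44, at 3.47, 12.9 and 9.58, at 1.95, 2.85 and 2.32 and at 0.843, 3.37 and 2.2 FPKM, lowest in tumor 1 for all 4. These values are set side by side with no test, and the cells they come from were not tested.

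Genes of naive and memory T cells that stem-like T cells share were also read. Il7r, a survival receptor, was at 2.56, 8.75 and 9.02 FPKM and Lef1, a partner of TCF-1 that Wnt also uses, at 2.17, 3.69 and 2.22 FPKM. Neither had the order of Tcf7, which was highest in tumor 1.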
